A study of Drosophila melanogaster with 12 samples.

Results

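Larval fat body expression was compared between libraries that differ in both genotype and diet. The 3 libraries labelled InRi from larvae on 0.15 M sucrose were set against the 3 control libraries from larvae on 0.7 M sucrose, across all genes. These 6 libraries, chosen by genotype and sucrose in the column names, are 6 of the 12 in the series. InRi is an RNA interference construct directed at InR, the insulin receptor gene of Drosophila melanogaster. High-sugar food is the dietary way of disturbing the same pathway, so the comparison puts a genetic disturbance of insulin signalling beside a dietary one.

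All larvae came from virgin females carrying UAS-Dcr2, which adds the RNA interference enzyme Dicer-2, and r4-GAL4, a driver active in the fat body. Libraries labelled InRi had fathers of a UAS-InRi stock of the Vienna Drosophila Resource Center, and control libraries had fathers of that centre's w1118 stock. Controls therefore carry UAS-Dcr2 and r4-GAL4 too, but no construct against InR. Larvae were female, grew at 25 °C on the stated food and were taken as wandering larvae of the third instar. Their fat bodies were freed by shearing and centrifugation, and total RNA was depleted of ribosomal RNA before sequencing. The labels do not say whether the 3 libraries of a group came from separate cultures, so each p-value sets a difference against the spread among these libraries, which may be technical.

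The fat body combines the roles of mammalian liver and fat tissue. It stores sugar and fat, secretes most blood proteins, and makes the antimicrobial peptides of the humoral immune response. Insulin-like peptides act through InR and the kinase Akt to promote growth and storage and to keep the transcription factor FOXO out of the nucleus, and FOXO raises InR transcription when insulin signalling is low. The Toll pathway, through the NF-kappaB proteins Dif and Dorsal, switches on drosomycin and the Bomanin peptides.

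The 12 libraries held 872755 to 7114144 counts. The libraries labelled InRi on 0.15 M held 6380813, 4654649 and 7114144, and the control libraries on 0.7 M held 4695974, 5135234 and 872755. Replicate 3 of control 0.7 M is thus the shallowest, and replicate 2 of control 0.15 M stands apart from all others, with 7628 genes detected against 9214 to 11312 elsewhere. The second of these is outside the 6 libraries compared but enters the shared estimate of the spread, and counts are given below with and without it. Larval serum and other fat body genes summed to 162563 to 358570.0 CPM (counts scaled to a common library total) in the libraries labelled InRi and to 230801 to 313525 CPM in the controls, and all 13 were measured. Markers of other tissues were present in every group and are given beside the genes they move with. In such bulk RNA, fewer cells of a type and less RNA per cell cannot be told apart.

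Counts assigned to InR were higher, not lower, in the libraries labelled InRi. InR had 151, 133 and 116 CPM in the libraries labelled InRi on 0.15 M and 56.4, 45.4 and 55.5 CPM in the control libraries on 0.7 M (log2 fold change 1.35, SE 0.30, edgeR adjusted p = 0.0325, from edgeR's quasi-likelihood test with Benjamini-Hochberg adjustment over all genes tested). The groups did not overlap. In the other 6 libraries InR had 109, 163 and 148 CPM in those labelled InRi on 0.7 M and 61.1, 26.04 and 43.1 CPM in control on 0.15 M (log2 fold change 1.67). The InR counts thus go against the label in both sets, so nothing below is taken to follow from reduced InR. Counts per gene cannot tell whether any of these reads came from the construct itself. The fit was repeated with each of the 12 libraries left out in turn, here called omissions, and a call is lost where the adjusted p then misses 0.05. The InR call was lost without any replicate of InRi 0.15 M, any replicate of control 0.7 M or replicate 3 of InRi 0.7 M (adjusted p up to 0.188), though the log2 fold change stayed between 1.23 and 1.44.

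Dcr-2, the gene of the enzyme that all mothers carried as UAS-Dcr2, had 12878, 4614 and 10202 CPM in the libraries labelled InRi and 3938, 4034 and 4556 CPM in the controls (log2 fold change 1.14, SE 0.60, edgeR adjusted p = 0.535). The groups did not overlap, with the libraries labelled InRi higher, as in 11.8% of all genes tested. The difference did not pass the test. Of 15 insulin cascade genes, InR alone was called, with a count of 0 in 7 of the 12 omissions and of 4 higher without replicate 2 of control 0.15 M or in a fit of the 2 groups alone. The median log2 fold change was 0.27 against 0.03 over all genes tested. The kinase gene Pdk1 had a log2 fold change of 0.98 (edgeR adjusted p = 0.131) and Akt1 one of 0.91 (edgeR adjusted p = 0.176). Of 18 Tor pathway genes none was called with all 12 libraries by edgeR, DESeq2 or limma, with 2 higher and 2 lower at an unadjusted p under 0.05 and a median of 0.22. edgeR called 1 lower without replicate 2 of control 0.15 M and 2 lower with the 2 groups alone. Thor, the translation inhibitor that FOXO raises, had 97.9, 82.6 and 58.8 CPM in the libraries labelled InRi and 139, 145 and 225 CPM in the controls (log2 fold change -1.08, edgeR adjusted p = 0.415). Its sign here is opposite to that of InR, which FOXO also raises. In the other 6 libraries Thor had a log2 fold change of 1.27. Of 12 FOXO target genes, which include both, InR alone was called. The list had 9 positive and 3 negative log2 fold changes and a median of 0.36, with 4 higher and 1 lower at an unadjusted edgeR p under 0.05. edgeR called 2 higher without replicate 2 of control 0.15 M. It called none without replicate 1 of control 0.7 M, 1 of the 7 omissions in which the InR call was lost. With the 2 groups alone, 2 were higher and 1 lower.

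Among 25 tested of 28 genes of secreted signals edgeR called none. At an unadjusted p under 0.05, 4 were higher and 1 lower, and DESeq2 and limma each called 3 higher and 1 lower. edgeR called 5 higher and 1 lower without replicate 2 of control 0.15 M, 4 and 1 with the 2 groups alone, and 2 higher without replicate 2 of InRi 0.15 M. Ilp6, the insulin-like peptide made by fat body, had 577, 246 and 534 CPM in the libraries labelled InRi and 192, 150.0 and 183 CPM in the controls (log2 fold change 1.37, edgeR adjusted p = 0.0789). The TNF-like ligand egr had 200.3, 79.0 and 196 CPM in the libraries labelled InRi and 40.0, 56.9 and 59.9 CPM in the controls (log2 fold change 1.61, edgeR adjusted p = 0.0678). For both genes every library labelled InRi lay above every control library, and neither passed the test. Over all genes tested, 11.8% showed no overlap in this direction and 13.3% in the other. CCHa2, a peptide that signals nutrition to the brain's insulin cells, had 89.9, 107 and 96.2 CPM in the libraries labelled InRi and 154, 191 and 169 CPM in the controls (log2 fold change -0.81, edgeR adjusted p = 0.123), so every library labelled InRi lay below every control. The nuclear receptor gene svp had 138, 72.5 and 117 CPM in the libraries labelled InRi and 77.9, 63.8 and 87.1 CPM in the controls, with a 95% interval of the log2 fold change of -0.17 to 1.22 (edgeR adjusted p = 0.666).

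Across all genes, 8662 of 15222 had enough counts to be tested, and 207 had an adjusted p under 0.05 and are called changed here. This is 2.39% of genes tested. Of these, 98 were higher in the libraries labelled InRi (1.13%) and 109 were lower (1.26%). These shares are the ones to set beside the count of calls in each gene list. The median log2 fold change was 3.41 for the higher genes and −2.12 for the lower ones, and the smallest change called was 0.96. All 207 had no overlap between the groups, a pattern seen in 25.1% of all genes tested, 11.8% higher and 13.3% lower. The number of calls depends on which libraries enter. Without replicate 2 of control 0.15 M, 796 of 8870 genes were called (8.97%), 326 higher and 470 lower, and all 207 were among them. Without replicate 2 of control 0.7 M, 64 were called, and without replicate 3 of that group, 102. Without both replicate 2 of control 0.15 M and replicate 3 of control 0.7 M, a choice made after seeing the data, 601 were called.

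**Figure D1:**
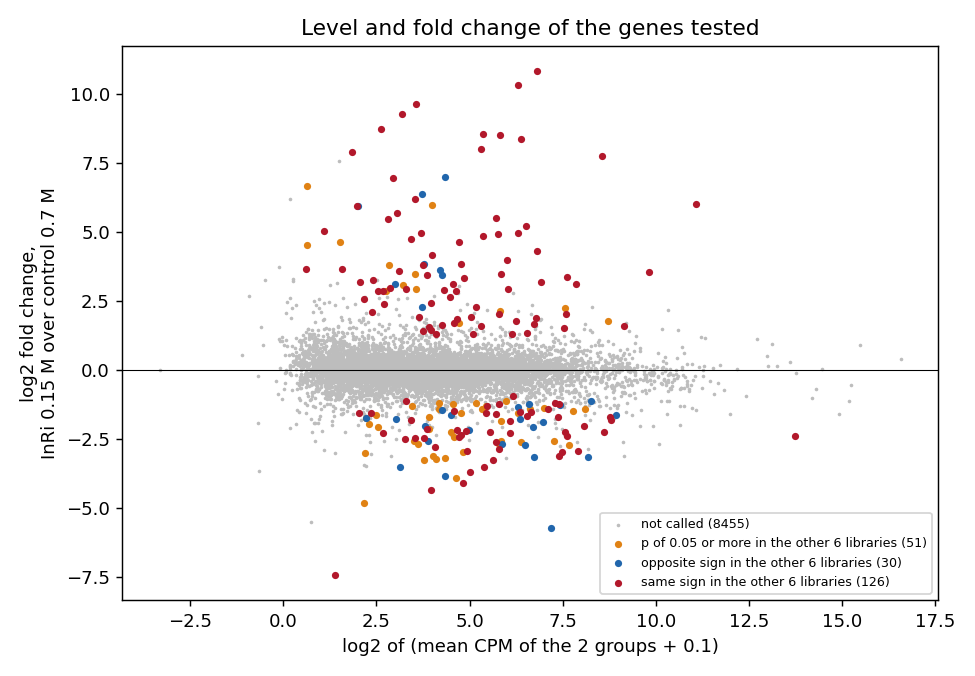
Log2 fold change of the libraries labelled InRi on 0.15 M over the control libraries on 0.7 M (y axis) against mean level on a log2 axis (x axis, CPM) for the 8662 genes tested. Coloured points are the 207 called genes, by their sign in the other 6 libraries, and grey points are genes not called. Of the 12 largest rises, CG13135 alone had the opposite sign there.

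Because genotype and sucrose differ together in these 6 libraries, the called genes were followed into the other 6. There the libraries labelled InRi are on 0.7 M sucrose and the controls are on 0.15 M, so the genotype difference runs the same way and the sucrose difference is turned round. No library is shared between both sets, though the spread and scaling were estimated over all 12. Of the 98 higher genes, 77 (78.6%) were also higher there at an unadjusted edgeR p under 0.05, 8 were lower and 13 were neither, where 15.2% of all genes tested were higher and 16.9% lower. Of the 109 lower genes, 49 were also lower there, 22 were higher and 38 were neither. At an adjusted p under 0.05 in the other set, the higher genes split into 71 of the same sign and 7 of the opposite, and the lower ones into 30 and 16. Most genes higher in the libraries labelled InRi on 0.15 M thus kept their sign when the diets were exchanged, whereas the lower genes were divided. Genes of the same sign were higher or lower with the genotype label in both sets, and those of the opposite sign with the sucrose level.

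**Figure D2:**
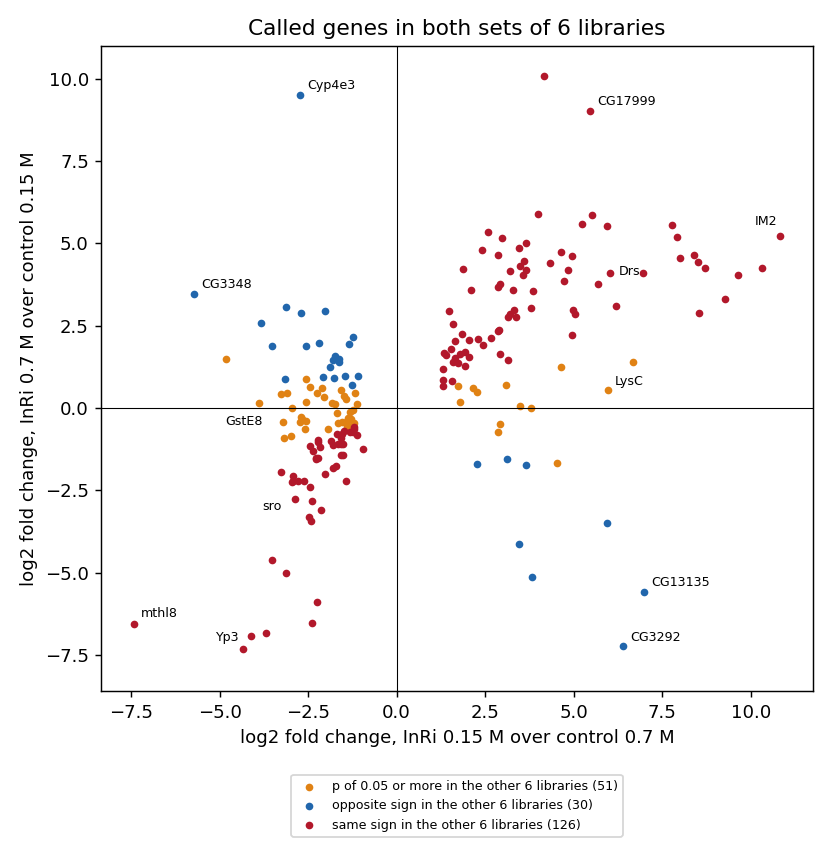
Log2 fold change of each of the 207 called genes in the 6 libraries compared (x axis, InRi 0.15 M over control 0.7 M) and in the other 6 (y axis, InRi 0.7 M over control 0.15 M). Points at upper right and lower left kept their sign (126 genes at p under 0.05), and points at upper left and lower right changed it (30 genes).

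Of the 12 largest rises, 10 were genes of secreted immune peptides. The Bomanins are short peptides that the fat body secretes under Toll control and that protect against bacteria and fungi. Of 11 Bomanin genes 10 had enough counts, and 9 of these were called higher and none lower. Their median log2 fold change was 8.15, or 6.97 with genes at 0 counts set at their bound, against 0.03 over all genes. The tested member not called was CG5791. The count was 4 without replicate 2 of control 0.7 M, 5 without replicate 1 of that group, and 6 to 10 with any other library left out.

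IM2 (BomS2) had 316, 145 and 214 CPM in the libraries labelled InRi on 0.15 M and 0.197, 0 and 0 CPM in the control libraries on 0.7 M, where 1 read was counted. The ratio of summed counts, scaled for depth, was 2413, 95% counting interval 433 to 95339, which covers counting error only (edgeR adjusted p = 0.00374, at most 0.0478 with any library left out). In the other 6 libraries it had 369, 417 and 294 CPM in those labelled InRi and 25.6, 0 and 0.571 CPM in the controls, so replicate 1 of control 0.15 M was the only control library of the series above 1 CPM. IM3 (BomS3), with counts in every control library on 0.7 M, had 1209, 323 and 727 CPM in the libraries labelled InRi and 1.38, 4.65 and 5.45 CPM in the controls (log2 fold change 7.77, SE 1.59, edgeR adjusted p = 0.0214). Within these 6 libraries, none labelled InRi came near a control library. In the other 6, IM3 had 1397, 1652 and 821 CPM in those labelled InRi and 79.1, 0 and 0.285 CPM in the controls. The IM3 call was lost without replicate 1 or 3 of InRi 0.15 M or any replicate of control 0.7 M (adjusted p up to 0.135).

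IM1 (BomS1) had 214, 101 and 159.9 CPM in the libraries labelled InRi and 1 count in all in the control libraries on 0.7 M, a ratio of 1691, 95% counting interval 303 to 66829.6 (edgeR adjusted p = 0.00917), and its call was lost without replicate 1 or 2 of control 0.7 M (adjusted p up to 0.0968). Genes with no count in these controls give only a lower bound, taken against 3 counts over the group. IM23 was at least 83.0-fold higher, CG18107 (BomS4) at least 43.4-fold and CG43202 (BomT1) at least 24.7-fold. CG18107 and CG43202 held in each omission (edgeR adjusted p up to 0.0358 and 0.0369), whereas IM23 was lost without replicate 1 or 3 of InRi 0.15 M or any replicate of control 0.7 M (adjusted p up to 0.117). CG15067 (BomBc2) had 209, 103 and 188 CPM in the libraries labelled InRi and 0.394, 0.665 and 0 CPM in the controls (edgeR adjusted p = 0.00468), and it overlaps CG18107 by 88 bases on the opposite strand. The strand used in counting is not given, so reads from the shared stretch cannot be assigned. Of genes named below, Acox57D-d, CG12703, CG3348, CG34279, CG3902, CG4991, LysC, LysD, Nmdmc, Pgm, Tsf3, Gpdh, Lsd-1, Pgd, PGRP-SD and Zw also share exon bases with another gene.

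CG15068 (BomS6) had 183, 69.2 and 63.3 CPM in the libraries labelled InRi and 4.34, 2.88 and 2.18 CPM in the controls (log2 fold change 4.94, SE 0.80, edgeR adjusted p = 0.00635), lost without replicate 2 of control 0.7 M (adjusted p up to 0.0693). CG16836 (BomT2), named after its values were seen, had a log2 fold change of 5.23 (edgeR adjusted p = 0.0164) and was lost without replicate 1 of InRi 0.15 M or any replicate of control 0.7 M (adjusted p up to 0.125). CG15065, which RefSeq names BomS5 and which stood outside the list, had a ratio of 436, 95% counting interval 121 to 3604 (edgeR adjusted p = 0.0142), lost without any replicate of control 0.7 M (adjusted p up to 0.123). All of these genes kept their sign in the other 6 libraries, with log2 fold changes of 2.89 to 5.59.

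Drs encodes drosomycin, an antifungal peptide. It had 6433, 1709 and 4633 CPM in the libraries labelled InRi on 0.15 M and 49.5, 74.7 and 71.9 CPM in the control libraries on 0.7 M (log2 fold change 6.03, SE 0.72, edgeR adjusted p = 0.00151). With the diets exchanged it had 3528, 5607 and 3042 CPM in those labelled InRi and 355, 291 and 63.1 CPM in the controls (log2 fold change 4.10). Every library labelled InRi exceeded every control library in the series, and the call held with any library left out (adjusted p up to 0.0225). Among the libraries labelled InRi on 0.15 M, replicate 1 was highest and replicate 2 lowest for Drs and IM3, the same order as for Dcr-2. Whether the level of Dcr-2 has a part in the immune result was not tested.

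Of 23 antimicrobial peptide genes, 3 had no count in any library and 12 could be tested, of which 5 were called higher and none lower (median log2 fold change 2.89). The count was 2 without replicate 1 or 2 of control 0.7 M, 3 without replicate 3 of control 0.7 M, replicate 1 of InRi 0.15 M or replicate 1 of InRi 0.7 M, and at most 6. IM4 (Dso1) and IM14 (Dso2), daisho peptides that act against fungi, had ratios of 402, 95% counting interval 137 to 1950.5 and 285, 95% counting interval 97.4 to 1384 (edgeR adjusted p = 0.00505 and 0.00339). The IM14 call held in each omission, and that of IM4 was lost without replicate 1 or 2 of control 0.7 M (adjusted p up to 0.0539). IM10 had 6.21, 1.65 and 4.11 CPM in the libraries labelled InRi and 1 count in all in the controls, a ratio of 43.2, 95% counting interval 7.53 to 1726, and was lost without replicate 1 or 3 of InRi 0.15 M, any replicate of control 0.7 M or replicate 1 or 2 of InRi 0.7 M (adjusted p up to 0.242).

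The attacin gene AttB, a peptide against Gram-negative bacteria, was called higher but did not differ in the other set at p under 0.05. It had 44.2, 11.2 and 8.83 CPM in the libraries labelled InRi on 0.15 M and 0.986, 3.10 and 1.09 CPM in the control libraries on 0.7 M (log2 fold change 3.49, SE 0.76, edgeR adjusted p = 0.0311). With the diets exchanged it had 12.5, 11.8 and 8.07 CPM in those labelled InRi and 16.1, 2.98 and 10.3 CPM in the controls, a log2 fold change of 0.06 (edgeR unadjusted p = 0.932). Its call was lost without replicate 1 of InRi 0.15 M, any replicate of control 0.7 M or replicate 1 of InRi 0.7 M (adjusted p up to 0.189). Metchnikowin, Mtk, named after its values were seen, had 10.4, 8.10 and 10.1 CPM in the libraries labelled InRi and 11.8, 14.2 and 7.62 CPM in the controls, which overlapped (edgeR adjusted p = 0.947). The other tested members not called were AttA, AttC, Dpt, DptB, Dro and dro5, with log2 fold changes of −1.40 to 3.16. The calls thus covered Drs, IM4, IM10, IM14 and AttB but neither diptericin gene. In the other 6 libraries Mtk, DptB and Dpt were higher in those labelled InRi, with log2 fold changes of 2.91, 4.49 and 1.95. Their unadjusted edgeR p was 6.9e-05, 4.3e-06 and 0.0039. There dro5 had one of -3.04, so missing a call here does not show that these genes were unchanged across the series.

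In the recognition list and in the Toll and Imd pathway list, 1 gene each was called. PGRP-SC2, a secreted amidase that cleaves bacterial peptidoglycan, had 570.5, 298 and 392 CPM in the libraries labelled InRi and 27.8, 60.7 and 55.5 CPM in the controls (log2 fold change 3.14, SE 0.44, edgeR adjusted p = 0.00339), at most 0.0242 in the omissions. It was the only called gene among 14 recognition genes tested, and 3 others were called lower without replicate 2 of control 0.15 M. PGRP-SD, of the same list, had a log2 fold change of -1.15 (edgeR adjusted p = 0.0554). Among 22 Toll and Imd pathway genes, 18 had positive and 4 negative log2 fold changes, with a median of 0.26, and Dif alone was called. The count was 0 in 8 of the 12 omissions, 5 higher without replicate 2 of control 0.15 M and 4 higher with the 2 groups alone. Dif had 33.7, 17.2 and 22.4 CPM in the libraries labelled InRi and 8.08, 11.7 and 9.80 CPM in the controls (log2 fold change 1.31, SE 0.29, edgeR adjusted p = 0.0354). Its groups did not overlap, but the call was lost without replicate 1 or 3 of InRi 0.15 M, any replicate of control 0.7 M or any replicate of InRi 0.7 M (adjusted p up to 0.197), and it overlaps the opposite-strand gene CG15141 by 252 bases. The receptor gene Tl had 300.2, 105 and 159 CPM in the libraries labelled InRi and 47.1, 53.6 and 57.7 CPM in the controls, and the Imd transcription factor gene Rel had 269, 149 and 225 CPM in the libraries labelled InRi and 94.2, 78.9 and 82.8 CPM in the controls. Neither passed (edgeR adjusted p = 0.128 and 0.201), although neither overlapped between groups, a pattern of 11.8% of all genes tested in this direction.

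Turandot genes encode small secreted proteins of the stress response under JAK/STAT control. Of 8 members 6 were tested and 2 were called higher, against 1.13% of all genes tested, with a median log2 fold change of 2.42. The count was 0 in 5 of the 12 omissions, 1 without replicate 3 of InRi 0.15 M and 4 without replicate 2 of control 0.15 M. Victoria (TotE) had 269.8, 51.6 and 36.9 CPM in the libraries labelled InRi and 2.76, 11.1 and 9.80 CPM in the controls (log2 fold change 3.99, SE 0.89, edgeR adjusted p = 0.0333). Replicate 1 of InRi 0.15 M set much of that value, and without it the log2 fold change was 2.56. Its call was lost without replicate 1 of InRi 0.15 M, any replicate of control 0.7 M or replicate 3 of InRi 0.7 M (adjusted p up to 0.163). TotF had no count in the controls on 0.7 M and was at least 10.5-fold higher, with 4.09, 1.65 and 3.05 CPM in the libraries labelled InRi, and was lost without replicate 1 or 3 of InRi 0.15 M, any replicate of control 0.7 M or replicate 3 of InRi 0.7 M (adjusted p up to 0.178). TotC had 254.9, 98.3 and 147 CPM in the libraries labelled InRi and 21.7, 84.9 and 59.9 CPM in the controls, which did not overlap and did not pass (log2 fold change 1.59, edgeR adjusted p = 0.268). In the other 6 libraries TotC had 424, 437 and 409 CPM in those labelled InRi and 1.91, 0 and 6.85 CPM in the controls. The 6 genes tested had a median log2 fold change of 5.45 there, with TotF lowest at 1.41 (edgeR unadjusted p = 0.137). The part of sucrose in these genes was not tested. Socs36E, the feedback inhibitor of JAK/STAT signalling, had 64.4, 39.8 and 40.8 CPM in the libraries labelled InRi and 22.7, 19.5 and 15.2 CPM in the controls (log2 fold change 1.303, SE 0.29, edgeR adjusted p = 0.0309), lost without replicate 1 or 3 of InRi 0.15 M, any replicate of control 0.7 M or replicate 3 of InRi 0.7 M (adjusted p up to 0.17).

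Blood cells also make immune proteins, and their markers leaned the same way. All 15 hemocyte markers tested had positive log2 fold changes (median 0.57). None was called with all 12 libraries by edgeR, DESeq2 or limma, though 3 had an unadjusted edgeR p under 0.05, and edgeR called 1 higher without replicate 2 of control 0.15 M or with the 2 groups alone. Their sum was 2114 to 2544 CPM in the libraries labelled InRi on 0.15 M and 1219 to 1582 CPM in the control libraries on 0.7 M. None of these markers was at 0. In the other 6 libraries the same sum was 2108 to 2671 CPM in those labelled InRi and 1815 to 7464 CPM in the controls, with a median log2 fold change of -1.17, while the Bomanin genes there had a median of 4.93. The median of the hemocyte markers thus had a different sign in each set of libraries. The sum of 7464 CPM was in replicate 2 of control 0.15 M, the library that stands apart. Replicates 1 and 3 of that group had sums of 1815 and 2943 CPM. The part of blood cells in the immune result was not tested.

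Several other genes rose with the same sign in both sets and held in every omission. CG4793 had 352, 111 and 175 CPM in the libraries labelled InRi and 8.48, 14.6 and 7.62 CPM in the controls (log2 fold change 4.32, SE 0.52, edgeR adjusted p = 0.00151). CG43153 had 181, 46.1 and 80.6 CPM in the libraries labelled InRi and 2.17, 1.55 and 4.36 CPM in the controls (log2 fold change 5.51, SE 0.69, edgeR adjusted p = 0.002). Both have only a number for a name, and each library labelled InRi was several times above each control library. Nmdmc, a mitochondrial enzyme that oxidizes methylene-tetrahydrofolate, had 107, 107 and 132 CPM in the libraries labelled InRi and 14.6, 15.5 and 15.2 CPM in the controls (log2 fold change 2.93, SE 0.32, edgeR adjusted p = 0.00115). The libraries of each group differed little. CG12014, named Ids in RefSeq after the lysosomal iduronate sulfatase of humans, had 19.8, 11.2 and 16.9 CPM in the libraries labelled InRi and 1.18, 1.77 and 0 CPM in the controls (log2 fold change 3.60, SE 0.49, edgeR adjusted p = 0.00334).

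TepI, a complement-like thioester protein gene, and CG6639 (SPH93), a serine protease homologue, were chosen after their values were seen. TepI had 292, 64.1 and 104 CPM in the libraries labelled InRi and 5.72, 4.65 and 3.27 CPM in the controls (log2 fold change 4.98, SE 0.86, edgeR adjusted p = 0.0102), lost without any replicate of control 0.7 M (adjusted p up to 0.0815). CG6639 had 3085, 769 and 1175 CPM in the libraries labelled InRi and 116, 164 and 145 CPM in the controls (log2 fold change 3.56, SE 0.69, edgeR adjusted p = 0.0153), lost without replicate 1 of InRi 0.15 M or any replicate of control 0.7 M (adjusted p up to 0.0982). Replicate 1 was again the highest of those labelled InRi on 0.15 M in both genes. CG43175 had no count in the controls on 0.7 M and was at least 63.1-fold higher, with 21.9, 15.7 and 15.99 CPM in the libraries labelled InRi. Its call was lost without any replicate of InRi 0.15 M or any replicate of control 0.7 M (adjusted p up to 0.137).

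**Figure D3:**
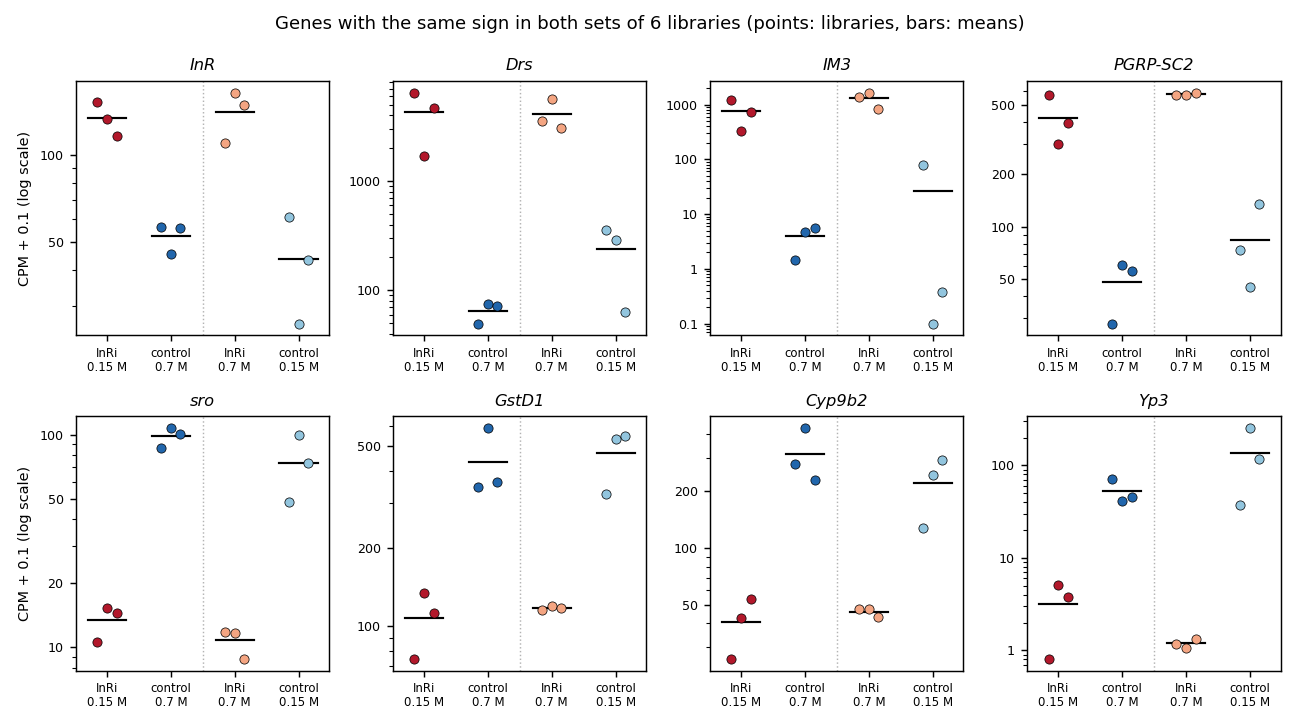
CPM plus 0.1 on a log axis in each of the 12 libraries for 8 called genes with the same sign in both sets of 6 libraries; each point is a library, bars are group means, and the dotted line parts the 6 libraries compared from the other 6. InR, Drs, IM3 and PGRP-SC2 were higher, and sro, GstD1, Cyp9b2 and Yp3 lower, in libraries labelled InRi than in controls, on either diet.

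Calls among glutathione S-transferase and cytochrome P450 genes were mostly on the lower side. Of 7 Ugt and 17 redox genes tested edgeR called none with all 12 libraries (median log2 fold changes 0.57 and -0.40). Without replicate 2 of control 0.15 M, 1 Ugt gene was called higher and 4 redox genes lower. Glutathione S-transferases attach glutathione to reactive compounds. Of 21 such genes 14 were tested, and 6 were lower and none higher, with a median log2 fold change of -0.31. Over all genes tested 1.26% were called lower and 1.13% higher. The 6 belong to 2 classes. The delta-class genes GstD10, GstD9 and GstD1, neighbours in the genome, had the same sign there, and the epsilon-class genes GstE3, GstE7 and GstE8 had neither sign at p under 0.05. That a p misses the threshold there does not show that the epsilon genes are equal between those groups.

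GstD1 had 74.1, 135 and 113 CPM in the libraries labelled InRi on 0.15 M and 348, 589 and 364 CPM in the control libraries on 0.7 M (log2 fold change -2.02, SE 0.32, edgeR adjusted p = 0.00575). With the diets exchanged it had 115.1, 119.6 and 117 CPM in those labelled InRi and 327, 533 and 547 CPM in the controls. Both control groups lay above both groups labelled InRi, without overlap. GstD10 had 3.95, 7.44 and 8.53 CPM in the libraries labelled InRi and 60.3, 101 and 67.5 CPM in the controls (log2 fold change -3.53, SE 0.52, edgeR adjusted p = 0.00453). GstD9 had 2.82, 5.29 and 4.42 CPM in the libraries labelled InRi and 23.9, 34.8 and 28.3 CPM in the controls (log2 fold change -2.79, SE 0.37, edgeR adjusted p = 0.00291). All 3 delta genes held with any library left out (edgeR adjusted p up to 0.0374, 0.0293 and 0.0242).

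GstE8 had 3.39, 2.64 and 3.96 CPM in the libraries labelled InRi on 0.15 M and 29.97, 39.2 and 22.9 CPM in the control libraries on 0.7 M (log2 fold change -3.22, SE 0.51, edgeR adjusted p = 0.00567). The other 6 libraries gave 8.72, 7.25 and 8.38 CPM in those labelled InRi and 10.1, 1.49 and 18.6 CPM in the controls, which overlapped. The 1.49 CPM was in replicate 2 of control 0.15 M, the library that stands apart. Replicates 1 and 3 of that group lay above every library labelled InRi on 0.7 M. Control on 0.7 M was the highest group of the 4 and InRi 0.15 M the lowest. GstE3 had 37.5, 51.4 and 72.2 CPM in the libraries labelled InRi and 299, 444 and 316 CPM in the controls (log2 fold change -2.72, SE 0.46, edgeR adjusted p = 0.00848), lost without replicate 1 of InRi 0.15 M (adjusted p up to 0.0553). GstE7, named so that all 6 are given, had a log2 fold change of -2.57 (edgeR adjusted p = 0.0336) and was lost without any replicate of InRi 0.15 M, any replicate of control 0.7 M or any replicate of InRi 0.7 M (adjusted p up to 0.158). Neighbouring glutathione S-transferase genes are similar in sequence, and how reads matching several of them were counted is not given.

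Cytochrome P450 enzymes oxidize hormones, fatty acids and toxins. Of 86 genes 62 were tested, 6 were lower and 3 higher, against 1.26% and 1.13% of all genes tested. The median was -0.51. Without replicate 2 of control 0.15 M, 17 were lower and 4 higher, and without replicate 2 of control 0.7 M, 2 were lower and none higher. Without replicate 1 or 2 of InRi 0.15 M 3 were lower, and the higher count was 0 or 1 without replicate 1 or 3 of either group compared. Cyp9b2 had 25.8, 42.8 and 53.6 CPM in the libraries labelled InRi and 279, 432 and 231 CPM in the controls (log2 fold change -2.95, SE 0.38, edgeR adjusted p = 0.00254). It had 47.5, 47.9 and 43.2 CPM in the other libraries labelled InRi and 128, 243 and 292 CPM in the other controls. Cyp9b2 therefore separated by genotype label in all 12 libraries, and its call held in each omission (up to 0.0199).

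Cyp6a23 had 3.67, 5.95 and 2.74 CPM in the libraries labelled InRi and 18.9, 23.9 and 26.1 CPM in the controls (log2 fold change -2.46, SE 0.44, edgeR adjusted p = 0.0112), lost without replicate 1 or 3 of InRi 0.15 M or replicate 2 of control 0.7 M (adjusted p up to 0.0638). Cyp309a1 had 159.8, 158 and 306 CPM in the libraries labelled InRi and 569, 889 and 559 CPM in the controls (log2 fold change -1.69, SE 0.33, edgeR adjusted p = 0.0163), lost without replicate 1 or 2 of InRi 0.15 M or replicate 1 or 2 of control 0.7 M (adjusted p up to 0.113). Both had the same sign in the other set. Cyp4ad1 had a log2 fold change of -2.06 (edgeR adjusted p = 0.0122) with neither sign there, and Cyp6t1, named so that all are given, one of -1.56 (edgeR adjusted p = 0.029). The sixth, Cyp4e3, is described with the genes that follow sucrose. Cyp18a1, which inactivates the moulting hormone ecdysone, was one of the 3 higher genes, beside Cyp309a2 and Cyp4p3 (log2 fold changes 2.41 and 3.20, edgeR adjusted p = 0.0499 and 0.029). Cyp18a1 had 15.8, 4.63 and 8.53 CPM in the libraries labelled InRi and 0.789, 1.33 and 3.27 CPM in the controls (log2 fold change 2.85, SE 0.60, edgeR adjusted p = 0.0238), lost without replicate 1 or 3 of InRi 0.15 M or replicate 1 or 2 of control 0.7 M (adjusted p up to 0.183).

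Among genes of hormone metabolism, sro had the smallest p of the lower genes with the same sign in both sets. The gene, shroud, encodes a short-chain dehydrogenase of ecdysone synthesis, known from the prothoracic gland. It had 10.4, 15.2 and 14.3 CPM in the libraries labelled InRi on 0.15 M and 86.2, 107 and 100.2 CPM in the control libraries on 0.7 M (log2 fold change -2.87, SE 0.30, edgeR adjusted p = 0.000881). The other 6 libraries gave 11.7, 11.6 and 8.69 CPM in those labelled InRi and 48.3, 99.7 and 73.1 CPM in the controls (log2 fold change -2.77). The 6 libraries labelled InRi and the 6 controls of the series did not overlap, and the adjusted p was at most 0.00712 with any library left out. The gene shares 109 bases with Rnb on the opposite strand, and reads from that stretch could come from either.

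Juvenile hormone epoxide hydrolases break down juvenile hormone. Jheh1 had 23.3, 20.5 and 31.7 CPM in the libraries labelled InRi and 83.6, 102 and 82.8 CPM in the controls (log2 fold change -1.83, SE 0.27, edgeR adjusted p = 0.00453), and Jheh3 had 70.8, 54.7 and 86.9 CPM in the libraries labelled InRi and 160.1, 225 and 163 CPM in the controls (edgeR adjusted p = 0.016). In the other 6 libraries neither differed at p under 0.05 (log2 fold changes 0.16 and -0.30). Control on 0.7 M was the highest group for both genes. They were 2 of 8 juvenile hormone genes tested, with none higher, and 1 was called without replicate 1 or 2 of either group. Over all genes tested 1.26% were called lower. Both overlap the antisense gene asRNA:CR46485, so their reads cannot be separated from it here. The Jheh1 call held in each omission, and that of Jheh3 was lost without replicate 1 or 2 of InRi 0.15 M or replicate 1 or 2 of control 0.7 M (adjusted p up to 0.0949).

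Among genes of storage, yolk and glue proteins, 1 of 13, 1 of 1 and 2 of 10 tested were called, all lower. Over all genes tested 1.26% were called lower. The yolk protein genes Yp1 and Yp2 had too few counts to be tested. Yp3, a yolk protein gene known from adult females, had 0.706, 4.96 and 3.65 CPM in the libraries labelled InRi and 72.2, 40.8 and 45.7 CPM in the controls (log2 fold change -4.10, SE 0.70, edgeR adjusted p = 0.00885). The adjusted p was at most 0.0473 with any library left out, and the sign was the same in the other set (1.07, 0.967 and 1.24 CPM in the libraries labelled InRi and 37.3, 254 and 117 CPM in the controls). Lsp1alpha, a larval serum protein stored for metamorphosis, had 2729.5, 3633 and 6679.9 CPM in the libraries labelled InRi and 22139, 25066 and 21422 CPM in the controls (log2 fold change -2.40, SE 0.49, edgeR adjusted p = 0.0214). The other 6 libraries gave 149, 285 and 375 CPM in those labelled InRi and 22381, 17395 and 34972 CPM in the controls. The groups labelled InRi thus stood below both control groups, and those on 0.7 M lowest of all. The call was lost without replicate 1 or 2 of InRi 0.15 M or any replicate of control 0.7 M (adjusted p up to 0.148). It was the only one called of 13 larval serum and fat body genes, whose median log2 fold change was 0.01, and 2 were called lower without replicate 1 or 2 of control 0.15 M, in the second case with 1 higher.

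Within each set of 6 libraries, the summed level of salivary gland genes was lower in every library labelled InRi than in any control of that set. Across the sets, replicate 2 of InRi 0.15 M (1738 CPM) lay above replicate 2 of control 0.15 M (1417 CPM). Most of the genes did not pass the test. Of 10 glue and salivary genes tested of 13, 2 were called, both lower, with a median log2 fold change of -2.54. Without replicate 2 of InRi 0.15 M, 6 were called and the median was −4.77, and without replicate 1 of control 0.7 M or replicate 1 or 3 of InRi 0.15 M, 1 was called. The list summed to 58.9 to 1738 CPM in the libraries labelled InRi on 0.15 M and to 2735 to 5791 CPM in the control libraries on 0.7 M, and in the other 6 to 14.98 to 121 CPM in those labelled InRi and 1417 to 2816 CPM in the controls. sage, a transcription factor gene of the salivary gland, had 2.12, 3.47 and 3.20 CPM in the libraries labelled InRi and 21.9, 13.1 and 13.1 CPM in the controls (log2 fold change -2.48, SE 0.37, edgeR adjusted p = 0.00453) and held in each omission. Sgs1, a glue protein gene, had 0.565, 3.30 and 0.457 CPM in the libraries labelled InRi and 41.0, 12.2 and 34.8 CPM in the controls (log2 fold change -4.34, SE 0.82, edgeR adjusted p = 0.0138), lost without replicate 1 or 3 of InRi 0.15 M or replicate 1 of control 0.7 M (adjusted p up to 0.0809). Sgs3, another glue gene, had 12.3, 191 and 8.53 CPM in the libraries labelled InRi and 643, 404 and 466 CPM in the controls, and did not pass (edgeR adjusted p = 0.271); its replicate 2 labelled InRi lay far above the other 2. The part that salivary gland RNA has in the other lower genes was not tested.

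Further lower genes of the same sign held in each omission. CG13822 (GILT3), of a family of lysosomal thiol reductases, had 6.77, 6.28 and 8.38 CPM in the libraries labelled InRi and 45.1, 78.6 and 37.0 CPM in the controls (log2 fold change -2.92, SE 0.32, edgeR adjusted p = 0.00115). CG14688 (Phyhd1) had 16.2, 11.6 and 16.3 CPM in the libraries labelled InRi and 77.5, 102 and 89.3 CPM in the controls (log2 fold change -2.61, SE 0.34, edgeR adjusted p = 0.00254). ACXD, an adenylyl cyclase gene, had 2.82, 3.30 and 4.72 CPM in the libraries labelled InRi and 18.5, 24.8 and 15.2 CPM in the controls (log2 fold change -2.46, SE 0.32, edgeR adjusted p = 0.00253). In each of these 3 genes the groups were far apart relative to the spread within them.

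The other named genes of this class lost their call in some omissions. mthl8, of the methuselah-like receptors, had no count in any library labelled InRi and 6.31, 3.32 and 5.45 CPM in the controls on 0.7 M, which makes it at least 32.5-fold lower, and it was lost without replicate 1 of InRi 0.15 M or any replicate of control 0.7 M (adjusted p up to 0.0846). CG34279 had 0.565, 10.4 and 3.20 CPM in the libraries labelled InRi and 72.2, 65.4 and 40.3 CPM in the controls (log2 fold change -3.68, SE 0.67, edgeR adjusted p = 0.012), lost without replicate 3 of InRi 0.15 M or replicate 1 or 2 of control 0.7 M (adjusted p up to 0.0681). CG8665, a formyltetrahydrofolate dehydrogenase gene, had 21.9, 2.97 and 2.89 CPM in the libraries labelled InRi and 68.8, 108 and 93.7 CPM in the controls (log2 fold change -3.27, SE 0.76, edgeR adjusted p = 0.0422). Its replicate 1 labelled InRi stood above the other 2, and without it the log2 fold change was −4.92. The CG8665 call was lost without replicate 2 or 3 of InRi 0.15 M, any replicate of control 0.7 M or any replicate of InRi 0.7 M (adjusted p up to 0.153).

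Enzymes of sugar alcohol and aldehyde metabolism gave 2 lower calls among 10 tested, and none higher, with 0 lower without replicate 1 or 2 of control 0.7 M and 1 lower without replicate 3 of control 0.7 M or any replicate of InRi 0.15 M. The aldo-keto reductase gene CG3397 had 10.4, 50.4 and 44.0 CPM in the libraries labelled InRi and 308, 354 and 253 CPM in the controls (log2 fold change -3.13, SE 0.58, edgeR adjusted p = 0.0135), lost without replicate 1 or 2 of control 0.7 M (adjusted p up to 0.0698). Sodh-1, a sorbitol dehydrogenase gene, had 7.62, 19.7 and 21.6 CPM in the libraries labelled InRi and 78.7, 102 and 50.1 CPM in the controls (log2 fold change -2.26, SE 0.50, edgeR adjusted p = 0.0336), lost without any replicate of InRi 0.15 M or any replicate of control 0.7 M (adjusted p up to 0.166). Both had larger falls in the other set, with log2 fold changes of -4.997 and -5.88. The difference between the sets was not tested.

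In 30 genes the group on 0.7 M sucrose was the higher one in both sets, or the lower one in both. Lower calls made up 22 of these. CG3348 had the smallest p of all genes in the comparison. It had 4.66, 6.44 and 5.03 CPM in the libraries labelled InRi on 0.15 M and 204, 349.6 and 297 CPM in the control libraries on 0.7 M (log2 fold change -5.72, SE 0.48, edgeR adjusted p = 0.000287). The other 6 libraries gave 196, 114 and 82.6 CPM in those labelled InRi on 0.7 M and 5.72, 18.6 and 12.6 CPM in controls on 0.15 M (log2 fold change 3.48). Every library on 0.7 M exceeded every library on 0.15 M, and the adjusted p was at most 0.00408 in the omissions.

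Cyp4e3, a P450 gene, followed sucrose with a further difference between the labels. It had 28.4, 20.98 and 21.6 CPM in the libraries labelled InRi on 0.15 M and 107, 146 and 217 CPM in the control libraries on 0.7 M (log2 fold change -2.72, SE 0.44, edgeR adjusted p = 0.00679). In the other 6 libraries it had 1832, 1405 and 822 CPM in those labelled InRi on 0.7 M and 1.36, 4.46 and 0.856 CPM in controls on 0.15 M (log2 fold change 9.52). From low to high the groups ran control 0.15 M, InRi 0.15 M, control 0.7 M and InRi 0.7 M, with no overlap between neighbours.

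CG5991 (Pisd), the phosphatidylserine decarboxylase that makes the membrane lipid phosphatidylethanolamine, had 13.8, 12.1 and 8.07 CPM in the libraries labelled InRi and 49.1, 54.9 and 50.1 CPM in the controls (log2 fold change -2.18, SE 0.25, edgeR adjusted p = 0.00124). asparagine-synthetase (AsnS), which makes asparagine, had 65.6, 45.3 and 49.8 CPM in the libraries labelled InRi and 144, 226 and 223 CPM in the controls (log2 fold change -1.88, SE 0.29, edgeR adjusted p = 0.00505). In both genes the libraries on 0.7 M lay above those on 0.15 M under either label. CG1774, CG13315 and CG15553 had log2 fold changes of -2.69, -3.14 and -3.83 (edgeR adjusted p = 0.00339, 0.00334 and 0.00339). All 5 of these genes held in each omission. CG4991, of the amino acid transporter list, had 9.17, 3.30 and 4.26 CPM in the libraries labelled InRi and 15.4, 33.9 and 17.4 CPM in the controls (log2 fold change -2.01, SE 0.43, edgeR adjusted p = 0.0287), lost without replicate 2 or 3 of InRi 0.15 M or any replicate of control 0.7 M (adjusted p up to 0.195).

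Acox57D-d, an acyl-CoA oxidase gene, had 13.3, 7.27 and 11.9 CPM in the libraries labelled InRi and 31.2, 27.5 and 43.6 CPM in the controls (log2 fold change -1.62, SE 0.36, edgeR adjusted p = 0.033), lost without any replicate of InRi 0.15 M, any replicate of control 0.7 M or replicate 2 of InRi 0.7 M (adjusted p up to 0.125). CG12703 (Abcd3), a transporter gene, and CG9527 (Acox3), another oxidase gene, were chosen after their values were seen. CG12703 had 44.6, 42.5 and 45.5 CPM in the libraries labelled InRi and 96.2, 101 and 144 CPM in the controls (log2 fold change -1.35, SE 0.25, edgeR adjusted p = 0.0124), lost without any replicate of InRi 0.15 M or replicate 3 of control 0.7 M (adjusted p up to 0.0646). CG9527 had a log2 fold change of -1.26 (edgeR adjusted p = 0.0498) and was lost in 10 of the 12 omissions (adjusted p up to 0.211). CG43236 (Mtkl), named metchnikowin-like in RefSeq and chosen after its values were seen, had 17.4, 22.0 and 26.04 CPM in the libraries labelled InRi and 204, 195 and 174 CPM in the controls (log2 fold change -3.13, SE 0.60, edgeR adjusted p = 0.0145). The CG43236 call was lost without any replicate of InRi 0.15 M or replicate 1 or 2 of control 0.7 M (adjusted p up to 0.0936).

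The other 8 genes were higher in the group on 0.15 M sucrose in both sets. CG13135 had 49.96, 46.4 and 22.99 CPM in the libraries labelled InRi on 0.15 M and 0.197, 0.443 and 0 CPM in the control libraries on 0.7 M, a ratio of 139.7, 95% counting interval 47.6 to 679 (edgeR adjusted p = 0.00124, at most 0.0225 in the omissions). With the diets exchanged it had 0.178, 0 and 1.24 CPM in those labelled InRi on 0.7 M and 26.2, 26.8 and 9.13 CPM in controls on 0.15 M. It was close to absent on 0.7 M sucrose under either label. CG9672 had 16.7, 38.5 and 21.3 CPM in the libraries labelled InRi and 2.37, 1.33 and 1.09 CPM in the controls (log2 fold change 3.83, SE 0.64, edgeR adjusted p = 0.00803), lost without replicate 2 of control 0.7 M (adjusted p up to 0.0725). CG3292 (Alp7), an alkaline phosphatase gene, had a ratio of 87.1, 95% counting interval 29.6 to 424 (edgeR adjusted p = 0.0112), lost without replicate 1 or 2 of control 0.7 M (adjusted p up to 0.0893) and in limma's voom fit. CG14850 (Jig) had 37.0, 36.2 and 31.7 CPM in the libraries labelled InRi and 4.73, 1.11 and 4.36 CPM in the controls (log2 fold change 3.45, SE 0.67, edgeR adjusted p = 0.0153), lost without replicate 1 of InRi 0.15 M or any replicate of control 0.7 M (adjusted p up to 0.115).

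The rest of the 8 are LysB, given below, and genes of lipid enzymes. CG6271, a lipase gene, had a ratio of 79.4, 95% counting interval 14.0 to 3158 (edgeR adjusted p = 0.033). Lip3, a lipase gene, had 16.2, 13.4 and 13.9 CPM in the libraries labelled InRi and 1.58, 2.22 and 0 CPM in the controls (log2 fold change 3.12, SE 0.70, edgeR adjusted p = 0.0357), and bgm, a very-long-chain acyl-CoA synthetase gene, had 22.2, 16.03 and 25.4 CPM in the libraries labelled InRi and 2.96, 4.87 and 6.53 CPM in the controls (edgeR adjusted p = 0.041). CG6271 was lost in 6 of the 12 omissions, and Lip3 and bgm in 9 each, with adjusted p up to 0.207, 0.192 and 0.226. Lip3 overlaps CheA87a on the opposite strand by 107 bases.

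**Figure D4:**
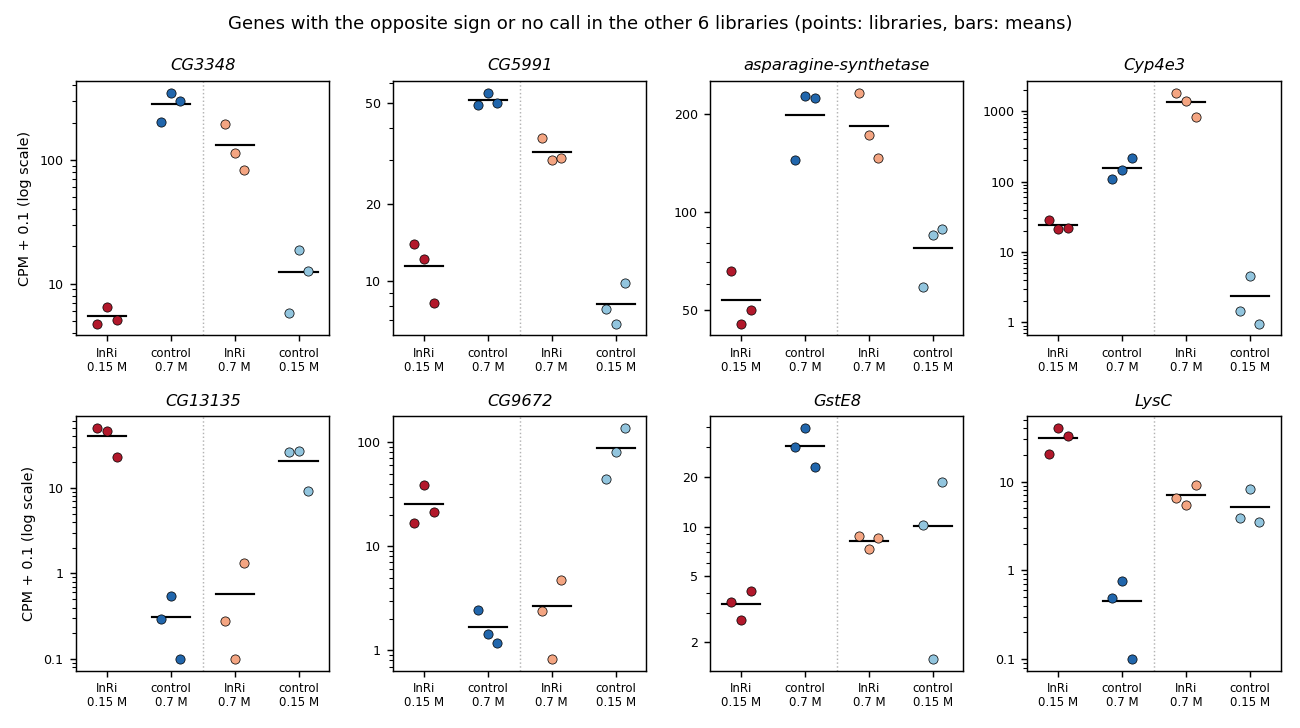
CPM plus 0.1 on a log axis in each of the 12 libraries for 8 called genes that changed sign between both sets or had no call in the other 6; each point is a library, bars are group means, and the dotted line parts the 6 libraries compared from the other 6. The libraries on 0.7 M are above those on 0.15 M for CG3348, CG5991, asparagine-synthetase and Cyp4e3 and below them for CG13135 and CG9672.

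Lysozyme genes of the LysB to LysE cluster, known from the larval midgut, were higher in the libraries labelled InRi on 0.15 M. LysC had 20.6, 40.3 and 32.9 CPM in these and 0.394, 0.665 and 0 CPM in the control libraries on 0.7 M (log2 fold change 5.97, SE 0.55, edgeR adjusted p = 0.000357). LysB had 23.1, 40.6 and 37.5 CPM in the libraries labelled InRi and 2.76, 1.99 and 4.36 CPM in the controls (log2 fold change 3.64, SE 0.53, edgeR adjusted p = 0.00395), and LysE had 8.75, 14.0 and 17.1 CPM in the libraries labelled InRi and 0.986, 1.11 and 0 CPM in the controls (edgeR adjusted p = 0.00291). LysD had a ratio of 29.3, 95% counting interval 5.05 to 1179, with 1 count in the controls, and was lost in 7 of the 12 omissions. The first 3 held in each. These neighbours are near copies of each other, so the split of reads among them is uncertain. LysC and LysE did not differ at p under 0.05 in the other 6 libraries, and LysB had the opposite sign there.

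The lysozymes stood among 31 midgut markers tested of 36, of which 4 were called higher, LysB to LysE, and 3 lower, Jon99Fi, Jon99Fii and LysX. The lower count was 0 without replicate 1 of control 0.7 M, 1 in 9 other omissions and under RLE scaling, and 4 without replicate 2 of control 0.15 M. The digestive protease gene Jon99Fi had 1.27, 3.47 and 2.89 CPM in the libraries labelled InRi and 31.7, 16.2 and 26.1 CPM in the controls (log2 fold change -3.27, SE 0.55, edgeR adjusted p = 0.00848), lost without replicate 1 of control 0.7 M (adjusted p up to 0.0518). The midgut list summed to 1174 to 2126 CPM in the libraries labelled InRi and 997 to 1215 CPM in the controls, with a median of 0.35, and in the other 6 libraries to 567 to 1427 CPM in those labelled InRi and 2502 to 4581 CPM in the controls. The part of gut RNA in the lysozyme result was not tested. Apart from these markers, CG12057 and CG13840 were among the largest falls. CG12057 had 1.13, 5.29 and 3.20 CPM in the libraries labelled InRi and 85.2, 27.7 and 26.1 CPM in the controls (log2 fold change -3.90, SE 0.70, edgeR adjusted p = 0.0112), lost without replicate 1 or 3 of InRi 0.15 M or replicate 1 of control 0.7 M (adjusted p up to 0.0636). CG13840 had 0.706, 0 and 0.152 CPM in the libraries labelled InRi and 1.97, 20.4 and 3.27 CPM in the controls (log2 fold change -4.83, SE 1.01, edgeR adjusted p = 0.0237), and replicate 2 of control 0.7 M stood above the others, with a log2 fold change of −2.85 without it. Its call was lost without any replicate of InRi 0.15 M or replicate 2 of control 0.7 M (adjusted p up to 0.322).

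Calls in sugar and lipid metabolism are given by list, where 2.39% of all genes tested were called. Of 10 maltase and amylase genes tested edgeR called none with all 12 libraries (median log2 fold change 1.17). At an unadjusted edgeR p under 0.05, 5 were higher and 2 lower. The 2 groups alone gave 5 higher and 2 lower calls. Of the 7 pentose phosphate genes, which supply NADPH for fat synthesis, all had negative log2 fold changes (median -1.25) and 1 was called lower. That gene, CG17333 (Pgls), had 19.6, 19.2 and 28.2 CPM in the libraries labelled InRi and 47.5, 69.6 and 58.8 CPM in the controls (log2 fold change -1.39, SE 0.31, edgeR adjusted p = 0.0314), lost without any replicate of InRi 0.15 M, any replicate of control 0.7 M or replicate 2 or 3 of InRi 0.7 M (adjusted p up to 0.17). Zw, the first enzyme of the pathway, had 8.75, 12.7 and 9.59 CPM in the libraries labelled InRi and 15.2, 26.6 and 34.8 CPM in the controls (edgeR adjusted p = 0.0697), and Pgd had 49.8, 69.1 and 63.8 CPM in the libraries labelled InRi and 208, 313 and 261 CPM in the controls (edgeR adjusted p = 0.0699). Neither overlapped between groups, with the libraries labelled InRi lower, a pattern of 13.3% of all genes tested. Without replicate 2 of control 0.15 M 6 of the 7 were called lower, without replicate 1 of that group 2, and in 7 other omissions none.

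Of 15 glycolysis genes edgeR and DESeq2 called none with all 12 libraries and limma 1 higher and 5 lower. edgeR called 1 higher and 5 lower without replicate 2 of control 0.15 M, and 6 lower with the 2 groups alone. With all libraries 1 higher and 4 lower gene values had an unadjusted edgeR p under 0.05. The list had 12 negative and 3 positive log2 fold changes and a median of -0.67. Gpdh, which links glycolysis to the glycerol of fat, had 63.4, 74.5 and 75.2 CPM in the libraries labelled InRi and 187, 198 and 342 CPM in the controls (log2 fold change -1.76, edgeR adjusted p = 0.162). Of 13 trehalose and glycogen genes, 1 was called, Pgm (phosphoglucomutase) with 76.9, 116 and 114 CPM in the libraries labelled InRi and 249, 236 and 227 CPM in the controls (log2 fold change -1.21, SE 0.28, edgeR adjusted p = 0.0402). The groups stood apart, but the call was lost in 8 of the 12 omissions (adjusted p up to 0.226), and 2 genes of the list were called without replicate 2 of control 0.15 M. CG7224 (Sirup), of the sugar sensing list, had 387, 314 and 625 CPM in the libraries labelled InRi and 147, 201 and 137 CPM in the controls (edgeR adjusted p = 0.0545).

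For lipids, 2 of 19 fatty acid oxidation genes were called lower and none higher, with 17 negative log2 fold changes and a median of -0.53. The count was 6 without replicate 2 of control 0.15 M or with the 2 groups alone, 1 without replicate 3 of control 0.15 M or of InRi 0.7 M, and 0 in 7 other omissions. They are Acox57D-d, given above, and the acyl-CoA dehydrogenase gene CG3902, with 50.9, 58.0 and 47.4 CPM in the libraries labelled InRi and 127, 145 and 176 CPM in the controls (log2 fold change -1.52, SE 0.36, edgeR adjusted p = 0.049). CG3902 was lost in 9 of the 12 omissions (adjusted p up to 0.205) and under RLE scaling. Of 12 fatty acid synthesis genes bgm alone was called, and of 14 triglyceride and droplet genes Lip3 alone, both higher. In the fit without replicate 2 of control 0.15 M, 2 and 3 genes of these lists were called lower. AcCoAS, which makes acetyl-CoA for fat synthesis, had 409, 275 and 277 CPM in the libraries labelled InRi and 642, 1109 and 1202 CPM in the controls (log2 fold change -1.62, edgeR adjusted p = 0.0755). Lsd-1, a coat protein of lipid droplets, had 419, 337 and 508 CPM in the libraries labelled InRi and 903, 1468 and 1054 CPM in the controls (log2 fold change -1.44, edgeR adjusted p = 0.0929). Both had the opposite sign in the other set (log2 fold changes 1.42 and 1.40), and neither passed here.

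**Figure D5:**
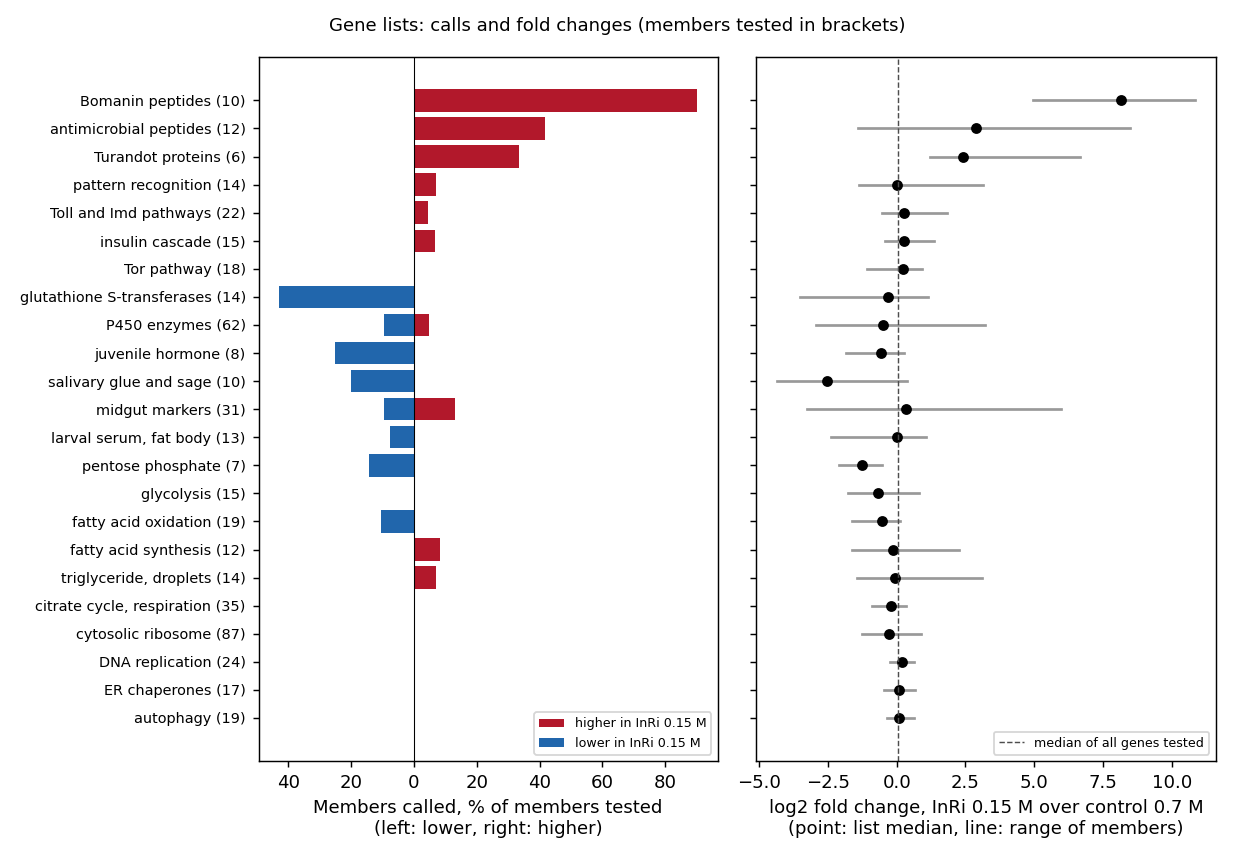
Left, percent of tested members of 23 gene lists called lower (bars to the left) or higher (bars to the right) in the libraries labelled InRi on 0.15 M; right, median log2 fold change of each list over the control libraries on 0.7 M (point) and the range of its members (line), with the median of all genes as a dashed line. Of these lists, Bomanins had the highest share of higher calls (9 of 10) and glutathione S-transferases the highest share of lower calls (6 of 14).

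With all 12 libraries edgeR called none of 87 cytosolic ribosomal protein genes (median -0.26), 24 DNA replication genes (0.18), 17 genes of the endoplasmic reticulum (0.08), 19 autophagy genes (0.10), 28 proteasome genes (0.04) and 35 citrate cycle and respiratory genes (-0.22). In the fit without replicate 2 of control 0.15 M, 9 ribosomal and 2 respiratory genes were called lower and 1 proteasome gene higher, and with the 2 groups alone 3, 1 and 1 of them. Of 70 mitochondrial ribosome genes 1 was called, mRpL36 (log2 fold change -1.298, edgeR adjusted p = 0.0457), and 61 of them had negative values. The count was 0 in 10 of the 12 omissions and 2 without replicate 2 of control 0.15 M. Transcripts of the mitochondrial genome summed to 17925 to 25607 CPM in the libraries labelled InRi and 32242 to 61371 CPM in the controls, and 11 of 11 tested had negative log2 fold changes (median -1.11). With all 12 libraries none of these was called by edgeR, DESeq2 or limma or had an unadjusted edgeR p under 0.05, but edgeR called 2 lower without replicate 2 of control 0.15 M and 7 lower with the 2 groups alone. At an unadjusted edgeR p under 0.05, these 6 lists held 1 higher proteasome gene, 1 higher autophagy gene, 4 lower ribosomal and 4 lower citrate cycle or respiratory genes. DESeq2 called 1 proteasome gene higher and 2 ribosomal genes lower, and limma called 1 proteasome gene higher and 5 ribosomal and 2 respiratory genes lower. Missing the threshold does not show that these genes were equal between the groups.

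Among tissue markers not yet given, none of 19 muscle, 12 nervous system, 7 tracheal and 10 imaginal disc genes tested was called with all 12 libraries by edgeR, DESeq2 or limma, or had an unadjusted edgeR p under 0.05, and 1 nervous system gene was called higher without both replicate 2 of control 0.15 M and replicate 3 of control 0.7 M. Muscle markers summed to 3887 to 6661 CPM in the libraries labelled InRi and 6321 to 7456 CPM in the controls. Iron proteins gave 1 lower call in 9 genes, against 1.26% of all genes tested. The count was 0 in 5 of the 12 omissions, 2 without replicate 1 of control 0.15 M and 3 without replicate 2 of control 0.15 M. The transferrin gene Tsf3 was the one called, with 12.4, 9.58 and 11.3 CPM in the libraries labelled InRi and 20.7, 31.2 and 22.9 CPM in the controls (log2 fold change -1.18, SE 0.24, edgeR adjusted p = 0.0182). It was lost without any replicate of InRi 0.15 M or replicate 2 or 3 of control 0.7 M (adjusted p up to 0.126). Tsf1, the main blood transferrin, had 345, 235 and 322 CPM in the libraries labelled InRi and 1084, 1743 and 839.6 CPM in the controls and did not pass (edgeR adjusted p = 0.0604), although the groups did not overlap. Such separation, with the libraries labelled InRi lower, was seen in 13.3% of all genes tested.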

How the data were processed

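RNA-seq counts per gene of the 12 libraries were used as the authors deposited them, in a table of raw counts with no normalization. TopHat 1.3.2, Bowtie 0.12.7, Cufflinks 1.1.0 and the dm3 build are named in the submitters' processing notes, and the tool that made the counts and its strand setting were not found in the sources used here. All columns were assigned from their names, and 0 were left unused. Of the gene symbols, 11526 were current in the RefSeq table, 1949 were locus tags, 1432 a synonym of 1 gene, 146 a synonym of several and 169 unmatched. The table is of another assembly than dm3, so no coordinates are given.

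Genes were filtered with filterByExpr (minimum count 10, minimum total 15), libraries were scaled by TMM, and all 12 libraries were fitted as 4 groups with edgeR 4.0.16 (quasi-likelihood test, Benjamini-Hochberg adjustment over all genes tested, threshold 0.05) in R 4.3.3. Library totals were 872755 to 7114144 counts, and folds of genes with 0 to 3 counts in a group are given as a bound at 3 counts or with a 95% interval that covers counting error only. Alternatives were RLE and upper-quartile scaling, other count filters, DESeq2 1.42.0, limma 3.58.1 (voom), the 2 groups alone, the replicate block and each library left out. The fit was tested on simulated data.

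The members, the 56 gene lists and the rule for naming genes were chosen with earlier results of these data known. Named are InR and svp, the 12 largest rises and 12 largest falls with at least 5 CPM in the higher group and no overlap, up to 5 genes of each list by p, and 6 genes by p of each class of sign in the other 6 libraries. Others are said in the text to be chosen after their values were seen. Figures were drawn with matplotlib 3.10.9 in Python 3.11.15.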

Additional observations from a re-analysis of the deposited data

How the results depend on the processing

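The direction of every one of the 207 called genes held in all 12 omissions, but 48 kept their call in each, 40 lost it in 1 to 3, 75 in 4 to 6 and 44 in 7 or more. The number called was 64 to 796 over the omissions, lowest without replicate 2 of control 0.7 M and highest without replicate 2 of control 0.15 M. The numbers with the same and the opposite sign in the other 6 libraries were 36 to 422 and 10 to 109. Rescaling and filtering gave 204 to 221 calls. DESeq2 called 422 genes (243 of the same and 50 of the opposite sign), limma's voom 733 (412 and 95), the 2 groups alone 716 (289 and 63), and the fit without both doubted libraries, added after seeing the data, 601; the cause was not tested. With the replicate block 147 were called, 98 of the same and 20 of the opposite sign, and 144 of the 207 were among them. InR had a log2 fold change of 1.35 with the replicate block (edgeR adjusted p = 0.0671) and of 1.23 to 1.44 in the omissions. The labels do not say what same-numbered libraries share. Deviations of same-numbered libraries correlated at −0.08, −0.17 and 0.01 over genes, and 0 of 6 libraries correlated best with its own number. With 3 libraries in each group, such correlations cannot show whether a number stands for a shared day or batch. svp, at 0.32 to 0.75 in the omissions, was never called. Some large differences missed the threshold: Pgd, with a log2 fold change of -2.10 and no overlap between groups, did not pass. It had 101, 613 and 165 CPM in control 0.15 M, a group that enters the shared estimate of the spread. Why Pgd missed the threshold was not tested.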

Other observations

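Some called genes lie next to each other in the gene order of the RefSeq table. The longest run of called genes in 1 direction held 10 Bomanin genes, CG43202 to CG15068, all higher in the libraries labelled InRi on 0.15 M. IM4 and IM14 followed CG17999, and LysB to LysE made a run of 4. On the lower side the longest run was GstD10, GstD9 and GstD1. A further pair, chosen after its values were seen, was CG33461 and CG33462. CG33462 had 75.1, 34.7 and 40.4 CPM in the libraries labelled InRi and 0.394, 2.88 and 4.36 CPM in the controls (log2 fold change 4.65, SE 0.66, edgeR adjusted p = 0.00339), held in each omission and had the same sign in the other 6 libraries.

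The following genes were also chosen after their values were seen. SpdS, spermidine synthase, which makes a polyamine, had 19.2, 27.6 and 24.4 CPM in the libraries labelled InRi on 0.15 M and 127, 182 and 122 CPM in the control libraries on 0.7 M (log2 fold change -2.60, SE 0.37, edgeR adjusted p = 0.00339). Control 0.7 M held the highest 3 libraries of the series, and the call held in each omission, though the gene overlaps an antisense RNA gene. CG5707 had 2.54, 4.63 and 3.05 CPM in the libraries labelled InRi and 31.0, 32.1 and 24.0 CPM in the controls (log2 fold change -3.11, SE 0.35, edgeR adjusted p = 0.00116), with control 0.7 M again the highest group. MtnA, a metallothionein that binds copper, had 33.3, 68.1 and 67.6 CPM in the libraries labelled InRi and 391, 717 and 161 CPM in the controls (log2 fold change -2.91, SE 0.59, edgeR adjusted p = 0.0184), lost without any replicate of InRi 0.15 M or replicate 1 or 2 of control 0.7 M (adjusted p up to 0.112). Ctr1B, a copper importer, had 14.8, 10.1 and 19.9 CPM in the libraries labelled InRi and 72.4, 148 and 67.5 CPM in the controls (log2 fold change -2.69, SE 0.49, edgeR adjusted p = 0.0123), lost without replicate 1 or 2 of InRi 0.15 M or replicate 2 of control 0.7 M (adjusted p up to 0.0717). The zinc transporter gene Zip3 was on the higher side, with 12.1, 6.77 and 16.9 CPM in the libraries labelled InRi and 0.986, 2.44 and 1.09 CPM in the controls (log2 fold change 2.87, SE 0.48, edgeR adjusted p = 0.00829), lost without replicate 1 of control 0.7 M (adjusted p up to 0.0678). spi, the main ligand of the EGF receptor, had 114, 83.4 and 102 CPM in the libraries labelled InRi and 42.0, 44.5 and 32.7 CPM in the controls (log2 fold change 1.32, SE 0.23, edgeR adjusted p = 0.0107), lost without replicate 1 of InRi 0.15 M or any replicate of control 0.7 M (adjusted p up to 0.0568). piwi, a germline small RNA protein, had 2.40, 1.82 and 3.96 CPM in the libraries labelled InRi and 0.197, 0.222 and 0 CPM in the controls (edgeR adjusted p = 0.0499), lost in 9 of the 12 omissions. Ctr1B and piwi share exon bases with opposite-strand genes.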
